A study of Mus musculus with 44 samples.

Results

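The genes described are those of the proteasome, taken as every gene of the deposited table named Psm followed by a letter from a to g and a number, with pseudogenes left out. The rule gave 50 of 35269 genes, of which 47 passed the filter on low values that left 16294 genes to be tested. One of the 50, Psmc3ip, carries the name of a proteasome ATPase but encodes a partner of the meiotic recombination machinery, and is counted as a member by name only. The 3 members that did not pass were Psmb8, Psmb9 and Psma8.

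Each sample was a single two-cell mouse embryo from a natural mating on a C57Bl/6 background, with mRNA captured by oligo-dT and sequenced as 1 library. There were 14 Dppa2/4+/+ embryos, 15 Dppa2/4+/- embryos from Dppa2/4m- females and Dppa2/4+/+ males, and, from Dppa2/4m- females and Dppa2/4+/- males, 5 Dppa2/4+/- and 10 Dppa2/4-/- embryos. Dppa2/4m- females carry floxed Dppa2 and Dppa4 deleted by Zp3-Cre in growing oocytes, so that the embryos of both these crosses lacked maternal Dppa2/4 and the +/- embryos could transcribe only the paternal allele. For embryos with Dppa2/4+/- sires the authors read the genotype off the transcripts of Dppa2 and Dppa4 themselves, so the level of these genes is no check of those labels. Each cross was represented by 2 labelled matings, called litters here, which gives 6 litters: 10 and 4 embryos for the Dppa2/4+/+ cross, 7 and 8 for the cross of Dppa2/4m- females with Dppa2/4+/+ males, and 7 and 8 for the cross with Dppa2/4+/- males. In the last cross litter 1 held 4 Dppa2/4+/- and 3 Dppa2/4-/- embryos and litter 2 held 1 and 7.

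Total reads ranged from 247667 to 3163026 per embryo. Levels are reads of a gene scaled to the total reads of the embryo (RPM), and differences are on the log2 scale after every value under 1.86 log2 RPM, the value that the shallowest embryo gives to a gene without reads, was raised to it. Where a gene had no reads the deposited table holds the value of 0.9 read, so the lowest levels quoted depend on depth, and about 3 reads are needed to tell a gene from 0. Reads carry no molecular identifiers, so these limits cover counting error only. In whole embryos, fewer transcripts per cell and less RNA of the embryo in total cannot be told apart. Each of 8 two-cell markers and 8 oocyte-derived markers, the latter transcripts being inherited from the egg, had reads in some embryos. Zfp352 and Sp110 of the former and Zp2, Gdf9, Bmp15, Nlrp5 and Omt2b of the latter had reads in all 44. The fewest were for Mos (18 embryos), Zscan4c (26) and Usp17la (27). Markers of cumulus and granulosa cells, which surround the egg, were at or near 0: Fshr had 0 reads in all 44 embryos, and the summed level of the 8 markers was at most 17.7 RPM.

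The proteasome is the protease that destroys proteins tagged with ubiquitin. Its core particle is a barrel of alpha rings, which gate the entrance, and beta rings, which hold the cutting sites, and the 19S particle on its end binds, unfolds and threads the tagged protein, with a ring of ATPases and a base next to the core and a lid that removes the ubiquitin. At the egg-to-embryo transition many proteins supplied by the oocyte are degraded through this route while the embryonic genome is switched on.

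Proteasome gene transcription in mammals is raised by the factor Nfe2l1 (also called NRF1), which binds a short element written TGACNNNGC. RefSeq promoters (GRCm38.p6) could be matched for 42 of the 50 member genes. On either strand of the 250 bases upstream of the start, the element was found in 5 of them (11.9%): Psmb5, Psmb6, Psmc6, Psmd12 and Psmd9. The share over all 27025 genes with a promoter was 11.52%, and that of the 25 constitutive 26S subunits with a promoter was 16.0%. The core of the CCAAT box was in 35.71% of the member genes and 37.49% of all genes, and the GC box GGGCGG in 52.38% and 35.36%. The 4 subunits of the 26S particle with a TGACNNNGC match are shown because this element is the one known for the family, with 60 bases each on the strand of the gene and the match in capitals. They lie at chr14:54618023-54618082 (Psmb5), chr11:70525297-70525356 (Psmb6), chr14:45329574-45329633 (Psmc6) and chr11:107479278-107479337 (Psmd12), outside the annotated exons of their genes. In Psmc6 and Psmd12 the element reads on the opposite strand.
Psmb5: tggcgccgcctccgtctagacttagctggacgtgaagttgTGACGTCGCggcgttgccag
Psmb6: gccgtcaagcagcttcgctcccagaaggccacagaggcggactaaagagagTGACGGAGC
Psmc6: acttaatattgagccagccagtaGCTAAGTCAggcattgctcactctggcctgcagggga
Psmd12: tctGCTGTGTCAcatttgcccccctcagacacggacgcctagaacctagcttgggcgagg

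To see which proteasome a two-cell embryo is provided with, levels were compared per kb of exon in the Dppa2/4+/+ embryos. All 31 constitutive 26S subunits, from the 14 core genes to the 19S lid, were above the median of the genes tested, and the median subunit stood at percentile 89.7. In the alpha ring Psma6 was the highest with 133 ± 81.5 RPM per kb (SD, n = 14) and Psma7 the lowest with 3.07 ± 2.89. In the beta ring Psmb5, the subunit with chymotrypsin-like activity, reached 116 ± 86.2 RPM per kb, while Psmb3, which has no cutting site, stood at 3.70 ± 3.89. The other catalytic subunits, Psmb6 (caspase-like) and Psmb7 (trypsin-like), had 20.97 ± 16.3 and 16.7 ± 4.81 RPM per kb.

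The 6 ATPases of the 19S base, which unfold the substrate, had lower levels per length, between 5.16 RPM per kb for Psmc3 and 23.4 for Psmc5. In the rest of the base the ubiquitin receptor Psmd4 was the highest with 41.6 ± 27.3 RPM per kb and the scaffold Psmd1 the lowest with 8.78 ± 3.57. In the lid Psmd7 and Psmd14 had 72.6 ± 30.2 and 60.6 ± 26.7 RPM per kb. Psmd14 is the enzyme that cuts ubiquitin off, and Psmd7 is its partner. Psmd3 was the lowest lid subunit with 7.997 ± 4.41. The subunits, which are needed in equal numbers in the finished particle, thus spanned a 43.4-fold range of levels per kb of exon. With the length of the longest principal transcript in place of all exons the range was 19.2-fold, from Psma6 to Psmc3, and the median level 48.4 in place of 23.4 RPM per kb, so the order of neighbouring genes rests on the length chosen.

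Among the activators that replace or accompany the 19S particle, Psme4, the subunit known as PA200, was the highest with 68.3 ± 26.001 RPM per kb and the nuclear activator Psme3 followed with 32.7 ± 11.7. Psme1 and Psme2, which form the activator of the interferon response, had 1.84 ± 2.81 and 2.304 ± 2.59 RPM per kb. Of the assembly chaperones, which help build the particle and leave it, Psmd5 was the highest with 12.3 ± 5.22 RPM per kb and Psmd9 the lowest with 1.32 ± 1.06. Psme2b shares 60.2% of its 75-base windows with other genes, most of all Psme2, and Psmb5 shares 36.8% and Psma5 35.2% with pseudogenes, so the levels of these genes are uncertain.

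Of the 5 core subunits restricted to certain tissues, 4 had few or no reads in any group. Psmb8 and Psmb9, catalytic subunits of the immunoproteasome, had reads in 1 of 44 embryos each, at most 5 and 3 reads. Psma8, the alpha subunit of the testis, had reads in 2 embryos, at most 5, and Psmb11, the catalytic subunit of the thymus, in 9, at most 17. Psmb10, the remaining catalytic subunit of the immunoproteasome, had reads in 26 embryos, 3 or more in 19 and at most 36. Its mean was 0.637 ± 0.707 RPM per kb in the Dppa2/4+/+ embryos and 11.2 ± 14.2 (n = 10) in the Dppa2/4-/- embryos.

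**Figure D1:**
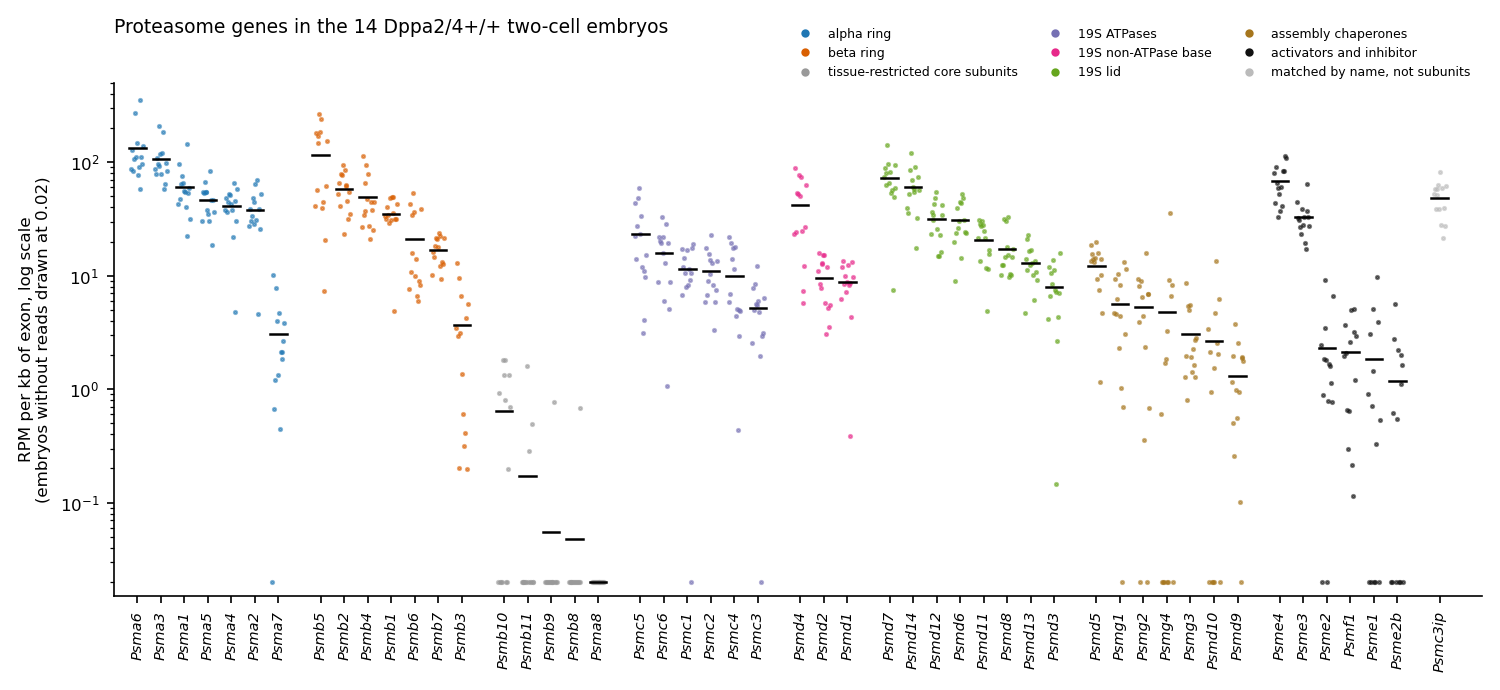
Level of each proteasome gene (RPM per kb of exon, log scale) in the 14 Dppa2/4+/+ embryos, in the order of role; points are embryos, bars are means, and embryos without reads are drawn at 0.02. The constitutive core, ATPase, base and lid genes have means between 3.07 and 133, and the means of the tissue-restricted core genes are below 1.

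The first question put to these genes was whether embryos with no Dppa2/4 differed from Dppa2/4+/+ embryos. None of the 47 proteasome genes tested was called in Dppa2/4-/- embryos (limma, Benjamini-Hochberg adjusted p under 0.05). Among all genes tested 0.0184% were called, and Dppa2 and Dppa4 were the 2 lower ones. At an unadjusted p under 0.05 there were 9 of 47 proteasome genes, against 14.6% of all genes, and limma voom on the recovered reads called 0; there 5 proteasome genes and 17.5% of all genes passed the unadjusted level. The median log2 difference of the 47 genes was 0.30, against 0.09 over all genes tested and 0.24 over those averaging 3 log2 RPM or more. After each embryo was re-centred on its median gene, 23 in place of 33 of the 47 genes lay above 0, so no direction is given for the family.

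By role, the median difference was 0.50 in the beta ring, with a range of 0.18 to 1.52, and -0.08 in the alpha ring, both without re-centring. The beta ring sum was above that of both Dppa2/4+/+ litters in litter 2 and not in litter 1. The 7 genes summed to 1145 ± 488 RPM (SD, n = 7) in the Dppa2/4-/- embryos of litter 2 and to 367 ± 114 (n = 3) in those of litter 1, against 597 ± 193 (n = 10) and 390 ± 171 (n = 4) in the Dppa2/4+/+ litters. The catalytic subunits of the constitutive core had differences of 1.23 ± 0.49 (SE) for Psmb5, 1.26 ± 0.49 for Psmb6 and 0.26 ± 0.34 for Psmb7, with adjusted p-values of 0.236, 0.223 and 0.754 (limma). In Dppa2/4+/+ embryos Psmb5 ran from 2.71 through a median of 6.43 to 7.91 log2 RPM. In Dppa2/4-/- embryos it ran from 4.94 through 7.71 to 8.35. Most of the range was shared by both groups.

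Psmb10 came closest to the threshold, at a difference of 1.58 ± 0.40 and an adjusted p of 0.085 (limma; unadjusted p = 0.000298). Its reads were 0 to 5 per embryo in the 14 Dppa2/4+/+ embryos, which were the most deeply sequenced group. In the 3 Dppa2/4-/- embryos of litter 1 they were 0, 0 and 14, and in the 7 of litter 2 they were 7, 3, 0, 24, 35, 6 and 36. The Dppa2/4+/- littermates had 0, 0, 0 and 9 reads in litter 1 and 7 in litter 2, and the difference between the genotypes within these litters was 0.80 ± 0.55 (adjusted p = 0.978, limma). A similar split was seen in the other Dppa2/4+/- embryos, where the 7 of litter 1 had 13, 7, 9, 4, 13, 3 and 1 reads and the 8 of litter 2 had 0 reads except for 1 read each in 2 embryos. Without litter 1 of the cross with Dppa2/4+/- males Psmb10 passed the threshold, as the 1 member then called, against 0.485% of all genes in that fit.

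The comparison within litters asked whether a paternal allele of Dppa2/4 made a difference among embryos of the same labelled mating. No proteasome gene was called in Dppa2/4-/- against Dppa2/4+/- littermates (limma with litter as a term), against 0.0184% of all genes. At an unadjusted p under 0.05 there were 5 of 47, against 4.76% of all genes, and limma voom called 0, with 5 at that unadjusted level against 5.17% of all genes. The ATPase Psmc4 had the largest difference, 2.76 ± 0.77 with an adjusted p of 0.389. In litter 1 it stood at -0.14, 1.91, 2.17 and 3.69 log2 RPM in the Dppa2/4+/- embryos and at 3.42, 5.39 and 6.09 in the Dppa2/4-/- embryos. In litter 2 it stood at 2.38 in the Dppa2/4+/- embryo and at 2.09, 4.15, 5.82, 6.07, 6.40, 6.58 and 7.67 in the Dppa2/4-/- embryos. In both litters the lowest Dppa2/4-/- embryo lay below the highest Dppa2/4+/- littermate, and with 1 Dppa2/4+/- embryo in litter 2 the comparison rests mostly on litter 1. The standard errors of the 31 constitutive subunits in this comparison were 0.31 to 0.88. The 2.76 ± 0.77 of Psmc4 was not called, so differences of several standard errors can go undetected here.

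Within litter 1 the summed level of the 31 constitutive subunits was 1625 ± 250 RPM (SD, n = 4) in Dppa2/4+/- and 1786 ± 263 (n = 3) in Dppa2/4-/- embryos. In litter 2 it was 2787 RPM in the single Dppa2/4+/- embryo and 4226 ± 1394 (n = 7) in the Dppa2/4-/- embryos. The lowest 2 Dppa2/4-/- embryos of litter 2 lay below that embryo.

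Dppa2/4+/- embryos were also compared with Dppa2/4+/+ embryos; these comparisons share their controls with the one above. Among the 5 Dppa2/4+/- embryos of Dppa2/4+/- sires limma called 0 proteasome genes (0.0307% of all genes). At an unadjusted p under 0.05 there were 9, against 8.51% of all genes, and limma voom gave 0 and 7, the latter against 9.95%. The median difference of the 47 genes was -0.39, against 0.00 over all genes tested. Positive differences were seen for 7 of 8 oocyte-derived markers (median 0.54) and 7 of 8 two-cell markers (median 0.65). None of these markers was called, and their part in the result was not tested. Psma6 had the largest difference, -2.20 ± 0.71 (adjusted p = 0.38, limma), and 4 of these 5 embryos came from litter 1, where it was low in both genotypes.

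For the 15 Dppa2/4+/- embryos of Dppa2/4+/+ sires limma called 3 of 47 proteasome genes, 1 higher and 2 lower, against 4.66% of all genes, 2.57% higher and 2.09% lower. Among genes averaging 3 log2 RPM or more it called 7 of 36, against 15.1% of those genes. All 8 oocyte-derived markers had positive differences in this comparison (median 0.74, Ooep called higher), as had 6 of 8 two-cell markers (median 0.61, Tcstv1 and Sp110 called higher), and their part in the result was not tested. Psma6, of the alpha ring on chr12:55384222-55418454 (GRCm38), ran from 6.16 through a median of 7.07 to 8.78 log2 RPM in Dppa2/4+/+ embryos and from 1.94 through 5.72 to 7.62 in these embryos. It was lower, with a difference of -1.79 ± 0.50 (adjusted p = 0.031, limma), and the groups overlapped. Psmd14, the deubiquitinase of the lid on chr2:61711694-61800376, ran from 5.64 through 7.34 to 8.41 in the controls and from 2.52 through 6.23 to 7.92 here.
Its difference was -1.62 ± 0.42 (adjusted p = 0.0175, limma). Psmd9, a chaperone of the ATPase ring on chr5:123169413-123250131, was higher: it ran from -0.45 through 2.96 to 4.76 in the controls and from 3.04 through 5.202 to 6.67 here, a difference of 2.02 ± 0.43 (adjusted p = 0.00514, limma). Reads were counted without regard to strand, and 25.5% of the exon sequence of Psmd9 overlaps the gene Gm26745 on the opposite strand.

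No litter held embryos of both groups, so the effects of litter and of genotype cannot be told apart by design. With litter 2 of the Dppa2/4+/- embryos left out, 0 proteasome genes were called. Psma6 then had a difference of -0.24 ± 0.47 and Psmd14 of -0.44 ± 0.36, while that of Psmd9 was 1.81 ± 0.55 (adjusted p = 0.12, limma), close to its size with all litters. The litter means of Psmd9 were 4.83 and 5.21 log2 RPM in these Dppa2/4+/- embryos and 2.91 and 3.29 in Dppa2/4+/+ embryos. With litter 1 left out 17 of 47 genes were called, the 3 among them, and 16 were lower, against 14.4% of all genes called in that fit. With litter 1 of the Dppa2/4+/+ embryos left out the count was again 0, with differences of -1.50 ± 0.86 for Psma6, -1.15 ± 0.71 for Psmd14 and 1.75 ± 0.68 for Psmd9, and it was 0 with litter as a random effect or with litter means as the replicates.

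**Figure D2:**
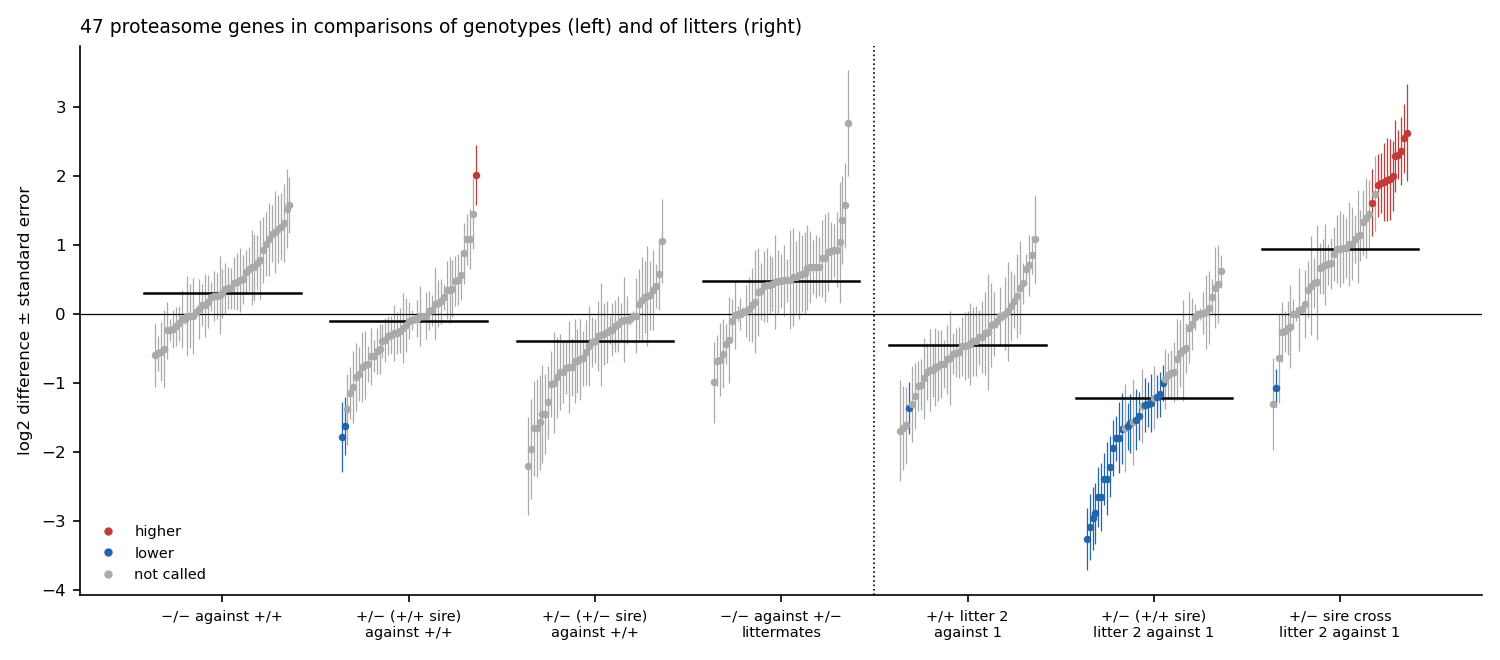
Log2 difference of the 47 proteasome genes tested in each comparison, with standard errors; red and blue points are called higher and lower (limma, adjusted p under 0.05), grey points are not called, and black bars are medians. The comparisons of genotypes hold 3 called genes in all, and the comparisons of litters of the same cross hold 1, 23 and 13.

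The spread between litters of 1 genotype and cross was therefore measured in its own right. Of the embryos from Dppa2/4+/+ sires and Dppa2/4m- females, 23 of 47 proteasome genes were lower in litter 2 than in litter 1 and 0 were higher (limma, adjusted p under 0.05). Of all genes tested 17% were called, 11.9% lower and 5.1% higher. After each embryo was re-centred on its median gene, 19 proteasome genes were lower and Psme4 was higher, against 7.12% and 11.5% of all genes. Among genes averaging 3 log2 RPM or more, where counting is less of a limit, 23 of 36 proteasome genes were lower and 1, Psme4, was higher. Of all such genes 35.5% were called, with 26.2% lower and 9.34% higher. The median difference of the 47 genes was -1.21 against -0.06 over all genes tested and -0.38 over those averaging 3 or more. The calls took in 4 of 7 alpha ring genes, 4 of 7 beta ring genes, 4 of 6 ATPases, 2 of 3 other base genes and 5 of 8 lid genes. Dppa2 and Dppa4 themselves were also called lower in litter 2 of these embryos (limma), Dppa2 at 5.74 against 7.30 log2 RPM (-1.56 ± 0.35, adjusted p = 0.0014) and Dppa4 at 4.67 against 6.46 (-1.79 ± 0.31, adjusted p = 8e-05). Neither was called between the litters of the other crosses, and the part of their level in the proteasome differences was not tested.

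The ATPase Psmc2, on chr5:21785283-21803787, had the largest difference. It ran from 4.99 through 5.83 to 7.21 log2 RPM in the 7 embryos of litter 1 and from -0.71 through 2.34 to 4.83 in the 8 of litter 2, without overlap (difference -3.26 ± 0.45, adjusted p = 3.93e-06, limma). Psmc5, another ATPase of the ring, ran from 4.50 through 5.19 to 6.12 in litter 1 and from -0.87 through 1.05 to 3.60 in litter 2 (-3.09 ± 0.48, adjusted p = 1.52e-05). Every embryo of litter 1 was again above every embryo of litter 2. Psmb4, a structural subunit of the beta ring on chr3:94884093-94886961, ran from 6.69 through 7.12 to 8.04 in litter 1 and from -0.71 through 4.45 to 6.28 in litter 2 (-2.97 ± 0.46, adjusted p = 1.62e-05). The lowest embryo of litter 2 had 0 reads of Psmb4 at 1472913 total reads.

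Psma6 ran from 5.72 through 6.92 to 7.62 in litter 1 and from 1.94 through 3.93 to 6.44 in litter 2 (-2.89 ± 0.44, adjusted p = 1.31e-05), with 1 embryo of litter 2 inside the range of litter 1. In the lid, Psmd13 ran from 5.47 through 6.05 to 6.67 in litter 1 and from 2.25 through 3.82 to 4.38 in litter 2 (-2.39 ± 0.38, adjusted p = 2.09e-05), and the litters did not overlap. The deubiquitinase Psmd14 was lower by the same test (-2.22 ± 0.44, adjusted p = 0.000435), with overlap. The assembly chaperone Psmg3 was lower with -2.65 ± 0.43 (adjusted p = 3.27e-05). The remaining lower genes had differences between -2.65 and -0.997, and included the scaffold Psmd1 (-1.30 ± 0.42), the ubiquitin receptor Psmd4 (-1.79 ± 0.51), the trypsin-like subunit Psmb7 (-1.48 ± 0.35), Psme1, Psme2 and Psmc3ip.

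The remaining 24 proteasome genes did not pass the test between these litters. Psma1 (0.01 ± 0.30) and Psma2 (-0.50 ± 0.36) of the alpha ring, named after their values were seen, were not called, nor were Psmb3 (-0.53 ± 0.73) and the caspase-like subunit Psmb6 (-0.66 ± 0.59). The activator Psme3 had a difference of 0.24 ± 0.26 and Psme4 of 0.62 ± 0.24, the highest among the 47 genes (adjusted p = 0.0761, limma). Litter 2 was the shallower, with a median of 524828 reads and 24 to 29 of the 31 constitutive subunits at 3 reads or more, against 663861 reads and 29 to 31 subunits in litter 1. Without the embryos under 500000 reads, which leaves 4 and 5 embryos in litters 1 and 2, 13 genes were lower, all 13 among the 23, against 7.13% of all genes called in that fit. The median difference of the 47 genes was then -1.06, and the 10 genes no longer called had differences between -1.96 and -0.91. Psma5 was the 1 of them whose difference shrank by more than 1.5 times, from -1.58 to -0.91. The part of depth in the difference was not tested beyond this.

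In the cross with Dppa2/4+/- males, 12 of 47 proteasome genes were higher and 1 was lower in litter 2 than in litter 1, with genotype as a term (limma). Of all genes tested 4.88% were called, 2.27% higher and 2.61% lower. Among genes averaging 3 log2 RPM or more 14 of 36 proteasome genes were called, against 12.7% of those genes. The median difference of the 47 genes was 0.94 against 0.00 over all genes tested. The calls took in 4 of 7 alpha ring genes, 2 of 7 beta ring genes, 2 of 6 ATPases, 2 of 8 lid genes and 2 of 7 assembly chaperones.

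Psmb2, a structural beta subunit, ran from 3.71 through 4.85 to 5.16 log2 RPM in the 7 embryos of litter 1 and from 5.66 through 7.001 to 7.97 in the 8 of litter 2 (difference 2.31 ± 0.36, adjusted p = 0.000259, limma). Psma6 ran from 3.69 through 4.77 to 5.62 in litter 1 and from 5.57 through 7.69 to 8.33 in litter 2 (2.54 ± 0.50, adjusted p = 0.00243). Psmb2 did not overlap between the litters, and for Psma6 the lowest embryo of litter 2 lay just under the highest of litter 1. Psmb4 was also higher in litter 2, at 3.60 through 4.76 to 6.07 in litter 1 and 6.12 through 7.51 to 8.33 in litter 2 (2.29 ± 0.52, adjusted p = 0.00736), and the litters did not overlap.

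The chaperone Psmg3 was higher with 2.35 ± 0.49 (adjusted p = 0.00423) and Psmd13 with 1.89 ± 0.43 (adjusted p = 0.00714). Psma7 had the largest difference, 2.63 ± 0.71 (adjusted p = 0.0233), from few reads: it ran from -0.30 through 0.49 to 3.03 in litter 1 and from 0.57 through 4.96 to 7.23 in litter 2. Psmc2 was higher with 2.00 ± 0.51 (adjusted p = 0.0169), and the remaining higher genes, Psma4, Psma5, Psmc1, Psmd12 and Psmg2, had differences between 1.61 and 1.95. Psme4, on chr11:30771726-30880361, was the gene that was lower: it ran from 8.87 through 9.36 to 10.03 in litter 1 and from 7.46 through 8.26 to 9.03 in litter 2 (-1.08 ± 0.28, adjusted p = 0.0168). After each embryo was re-centred on its median gene, Psme4, Psma5 and Psmg2 were not called, while Psmc5 and Psmd7 were called higher. Psmc1 (adjusted p = 0.0493, limma) was not called without the floor or with limma voom, nor was Psma5 without the floor. With the Dppa2/4-/- embryos alone, 3 against 7, 6 of the 13 genes were called: Psma6, Psmb2, Psmb4, Psmd13 and Psmg3 higher and Psme4 lower, against 0.749% of all genes higher and 0.847% lower in that fit.

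The embryos of these crosses are separate, so the lists can be set side by side. Of the 23 genes lower in litter 2 of the first cross, 10 (43.5%) were among the 12 higher in litter 2 of the other, which is 83.3% of the latter: Psma4, Psma5, Psma6, Psmb2, Psmb4, Psmc1, Psmc2, Psmd12, Psmd13 and Psmg3. The signs were opposite for 41 of the 47 genes. Neither the shared calls nor the opposite signs were counted over all genes, so these counts have no background beside them. Litter numbers have no shared meaning across crosses, and the opposition was not limited to the proteasome. The 2 litter differences had a correlation of -0.774 over the 6919 genes averaging 3 log2 RPM or more. Over the 47 proteasome genes, which were not held to that level, the correlation was -0.798. The gene sets differ, so the size of these values is not compared.

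Between the litters of the Dppa2/4+/+ cross 1 of 47 proteasome genes was called. Psmd5, a chaperone of the base, was lower in litter 2 (-1.37 ± 0.37, adjusted p = 0.0321, limma) and no other member was called, against 2.57% of all genes, 0.442% lower. Psmd5 ran from 5.76 through 6.67 to 7.17 log2 RPM in the 10 embryos of litter 1, and the 4 embryos of litter 2 had 3.08, 5.10, 6.21 and 6.66. Without replicate 11, the embryo with the lowest value and with the fewest genes detected (9169), 0 proteasome genes were called, against 1.37% of all genes. Without replicate 14 Psmd5 was not called either, while Psmb5, Psmd7 and Psmg4 were, against 5.89% of all genes. Limma voom called Psme4 higher in place of Psmd5, against 5.55% of all genes. The median difference of the 47 genes was -0.45 against 0.00 over all genes tested, with replicate 11 included. Summed over the constitutive subunits, that embryo had 1135 RPM, against 1914, 2311 and 2882 in replicates 12, 13 and 14. The median thus rests in part on this embryo.

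**Figure D3:**
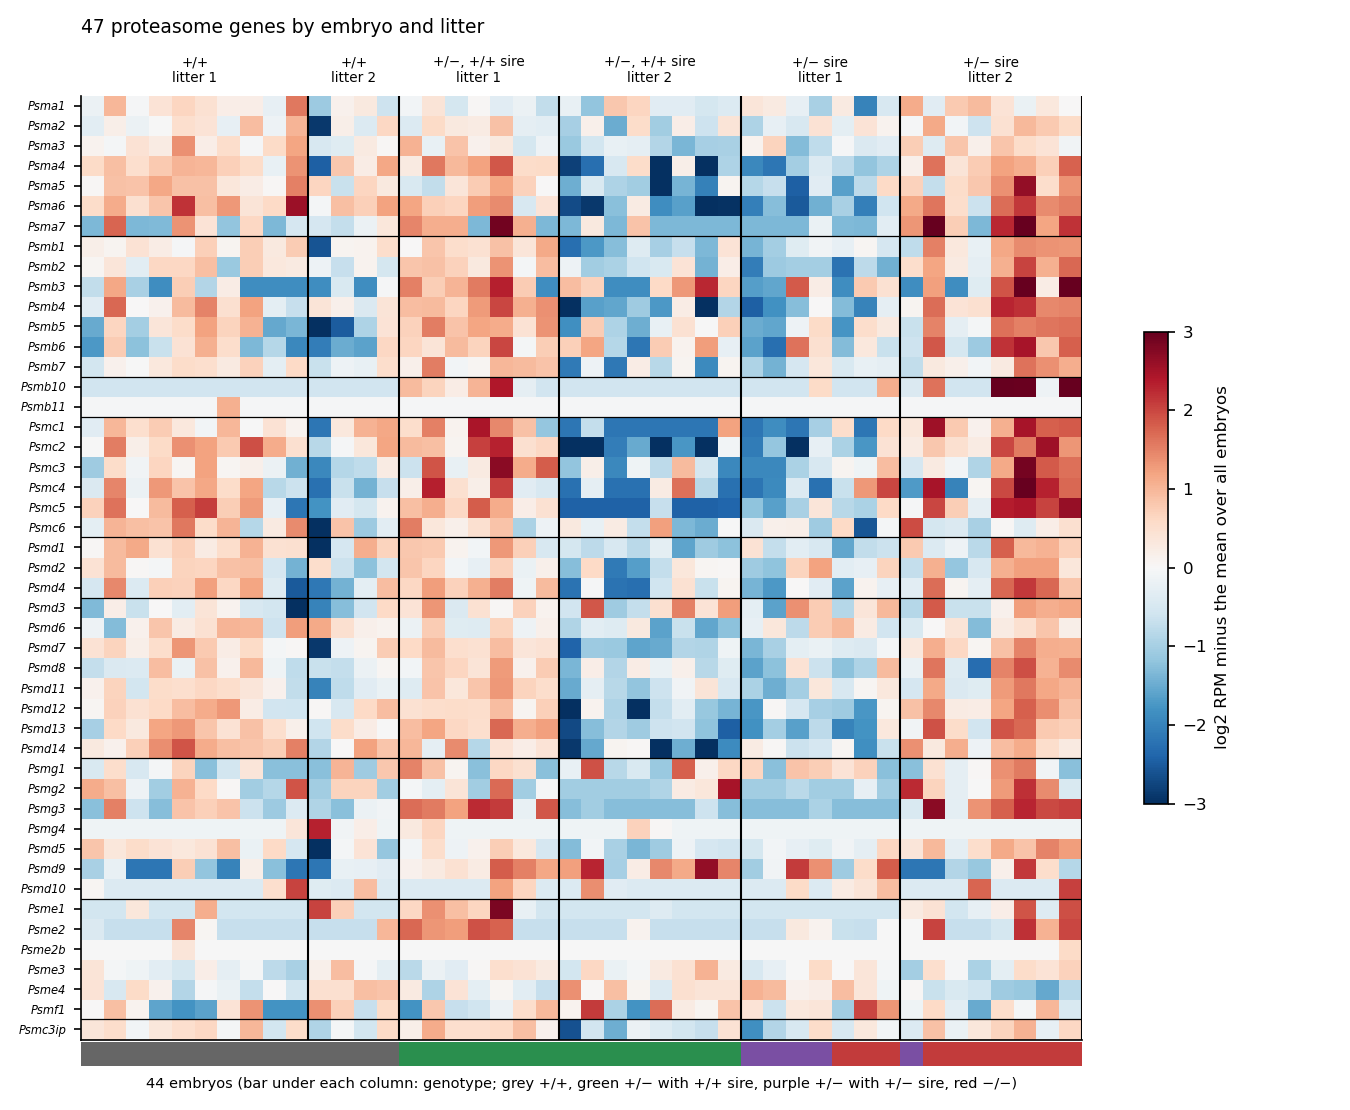
Log2 RPM of the 47 proteasome genes tested (rows, by role) in the 44 embryos (columns, by litter), each gene centred on its mean over all embryos and values under 1.86 raised to it. Blue, for values under the mean, is frequent among core, ATPase and lid genes in litter 2 of the Dppa2/4+/- embryos with Dppa2/4+/+ sires and in litter 1 of the cross with Dppa2/4+/- males, in both genotypes of the latter, where Psme4 is mostly red.

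Summed over the 31 constitutive subunits, proteasome transcripts made up 3344 ± 664 RPM (SD, n = 7) in litter 1 and 1480 ± 327 (n = 8) in litter 2 of the Dppa2/4+/- embryos with Dppa2/4+/+ sires. The 7 embryos of litter 1 lay between 2490 and 4606 RPM and the 8 of litter 2 between 897 and 1833. In the cross with Dppa2/4+/- males the sum was 1694 ± 248 (n = 7) in litter 1 and 4046 ± 1388 (n = 8) in litter 2, with ranges of 1335 to 2088 and 2082 to 6231, which overlapped by 1 embryo of each litter. The Dppa2/4+/+ litters had 3091 ± 686 (n = 10) and 2060 ± 734 (n = 4), and overlapped. Of the 31 subunits, 18 had their lowest litter mean in litter 2 of the Dppa2/4+/- embryos with Dppa2/4+/+ sires, 9 in litter 2 of the Dppa2/4+/+ embryos and 4 in litter 1 of the cross with Dppa2/4+/- males, and 19 had their highest in litter 2 of that cross. The 9 rest in part on 1 of 4 embryos, replicate 11, which had the lowest sum of its litter (1135 RPM). This order was not counted over all genes.

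Omt2b, the most abundant of the oocyte-derived markers, was high in the litters of both crosses in which the sum of the subunits was low. Its difference was 1.64 ± 0.32 (adjusted p = 0.00035, limma) between litters 2 and 1 of the Dppa2/4+/- embryos with Dppa2/4+/+ sires and -1.74 ± 0.36 (adjusted p = 0.00423) in the cross with Dppa2/4+/- males. In the former 5 of the 8 markers had positive differences and 2, Ooep and Omt2b, were called higher, while Zp3 (-1.0028), Zp2 and Nlrp5 were below 0 and not called. In the latter 7 were negative and 2, Bmp15 and Omt2b, were called lower, with Zp3 at 0.62 ± 0.53. The 8 markers summed to 8830 ± 1603 RPM in litter 2 and 3392 ± 1618 in litter 1 of the Dppa2/4+/- embryos with Dppa2/4+/+ sires, with ranges of 7301 to 12526 and 1499 to 5531. In the cross with Dppa2/4+/- males they summed to 7422 ± 476 in litter 1 and 2524 ± 939 in litter 2. Most of this sum is Omt2b, with up to 12003 RPM in an embryo. The 8 two-cell markers summed to 1073 ± 320 and 617 ± 191 RPM in litters 2 and 1 of the former cross and to 782 ± 246 and 546 ± 178 in litters 1 and 2 of the latter. Sp110 was the most abundant of them and was not called in either comparison, so the sums say little of the others. Of the 8, 5 were called higher in litter 2 of the former cross (limma): Tcstv1 (4.23 ± 0.55, adjusted p = 1.42e-06), Tcstv3 (2.70 ± 0.63), Zfp352 (2.24 ± 0.61), Zscan4d (2.07 ± 0.53) and Zscan4c (0.82 ± 0.29). In litter 2 of the latter 4 were called lower: Tcstv1 (-3.03 ± 0.62, adjusted p = 0.00353), Tcstv3 (-2.98 ± 0.71), Zscan4d (-2.55 ± 0.60) and Zfp352 (-2.46 ± 0.69). The 8 markers of cumulus and granulosa cells summed to at most 12.2 RPM in these 4 litters, which leaves them near 0 throughout. In the Dppa2/4+/+ cross litter 2 had the lower subunit sum. There the two-cell markers summed to 519 ± 177 RPM in litter 1 and 386 ± 198 in litter 2, and the oocyte-derived markers to 2785 ± 1050 and 5104 ± 2649. No marker of either list was called between these litters. The part of embryo stage in the proteasome differences was not tested.

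**Figure D4:**
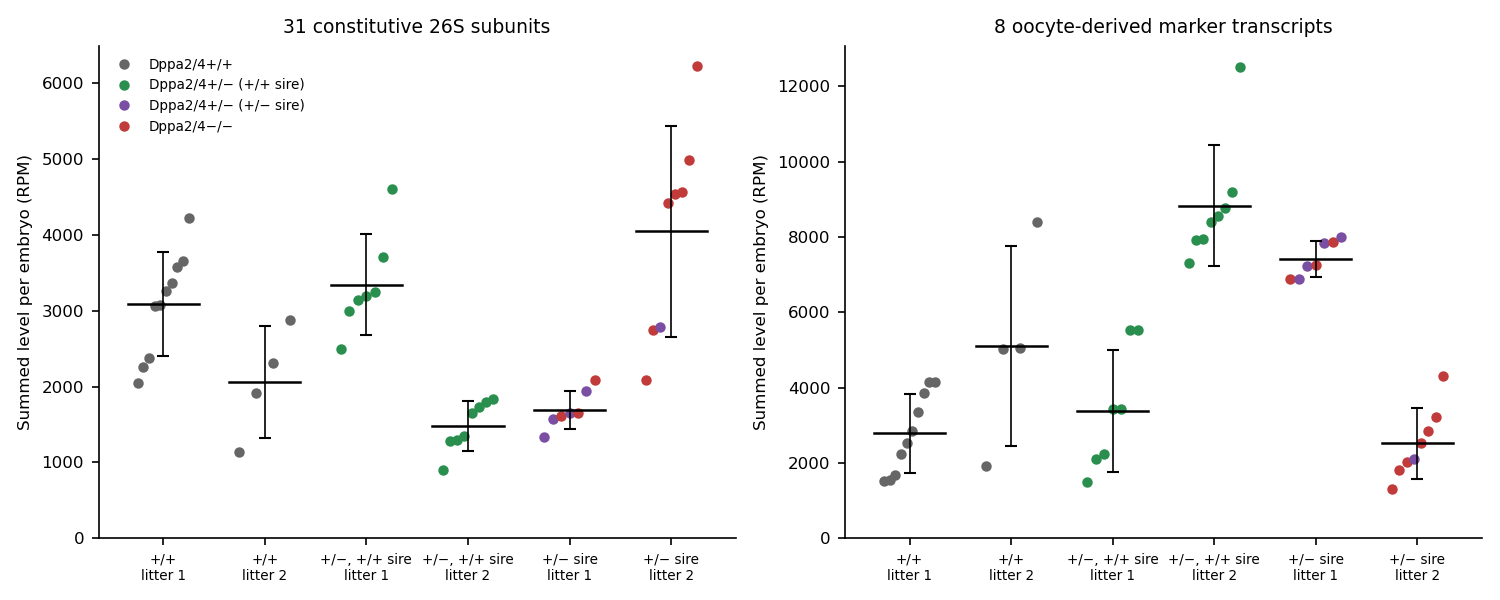
Summed level (RPM) of the 31 constitutive 26S subunits (left) and of 8 oocyte-derived markers (right) in each embryo, by litter, with colours for genotype, bars for means and whiskers for SD. On the left the litters of the Dppa2/4+/- embryos with Dppa2/4+/+ sires lie at 2490 to 4606 and 897 to 1833, and on the right their order is turned, at 1499 to 5531 and 7301 to 12526.

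**Figure D5:**
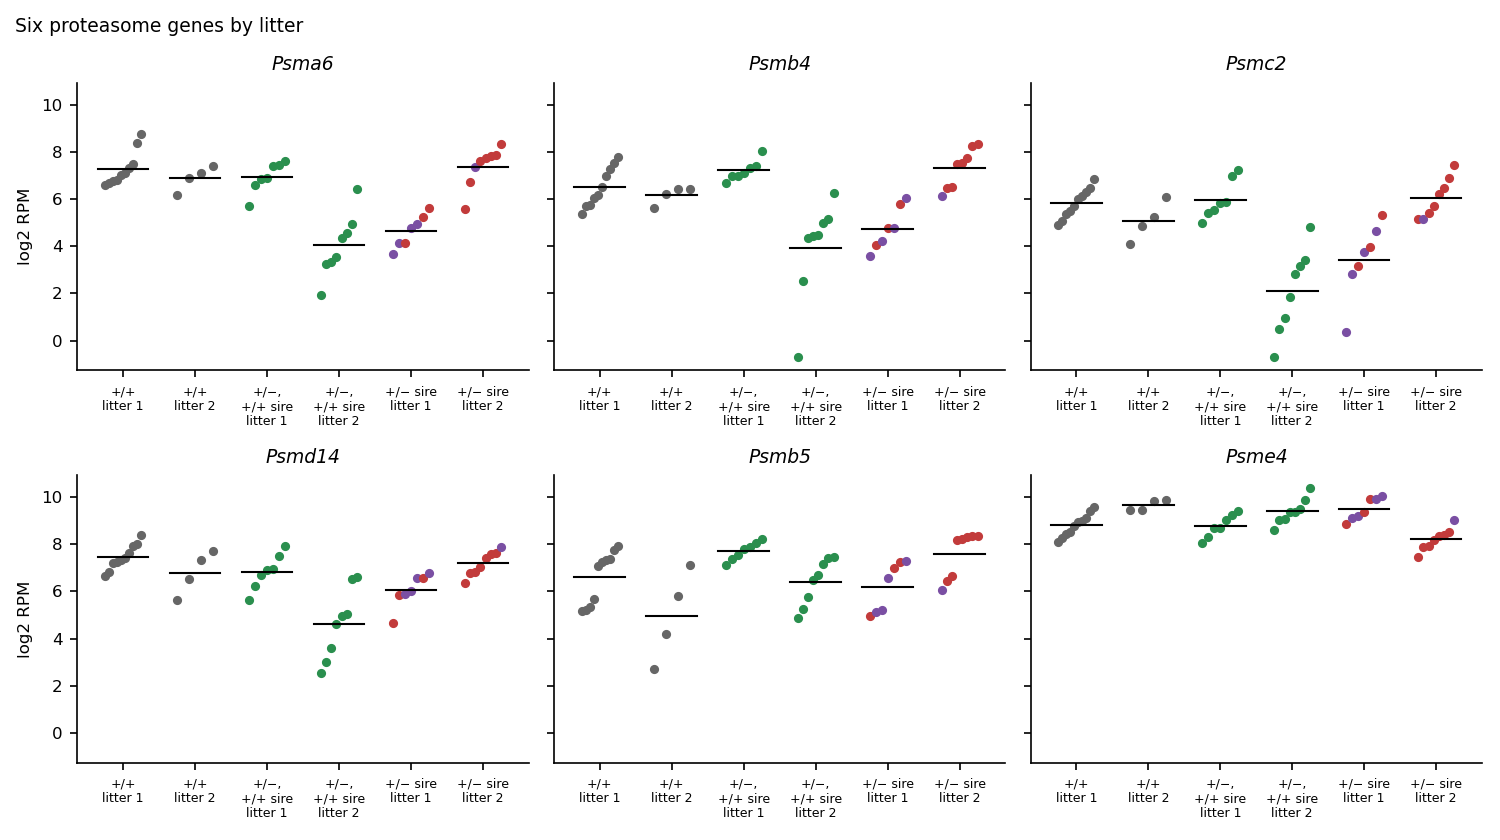
Deposited log2 RPM of 6 proteasome genes in each embryo, by litter, with colours for genotype as in the plot of summed levels and bars for means; an embryo without reads holds the value of 0.9 read. Psmc2 and Psmb4 reach -0.71 in litter 2 of the Dppa2/4+/- embryos with Dppa2/4+/+ sires, Psma6 and Psmd14 are low there too, and Psme4 stays between 7.46 and 10.37 in all litters.

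Genes of the pathway outside the naming rule were read from lists of partners. Of 8 proteasome subunits and bound factors without a Psm name, 3 were lower and 2 higher in litter 2 of the Dppa2/4+/- embryos with Dppa2/4+/+ sires (limma), against 11.9% and 5.1% of all genes. Pomp, the chaperone that matures the core, was lower there (-2.22 ± 0.57, adjusted p = 0.00531) and higher in litter 2 of the cross with Dppa2/4+/- males (2.24 ± 0.64, adjusted p = 0.0332). The ubiquitin receptor Adrm1 (-1.64 ± 0.48) and its partner enzyme Uchl5 (-1.53 ± 0.52) were lower in the former. Akirin2, which carries proteasomes into the nucleus, was higher in the former (1.26 ± 0.26, adjusted p = 0.00072) and in litter 2 of the Dppa2/4+/+ embryos (1.11 ± 0.30, adjusted p = 0.0287), as was the proteasome adaptor Ecpas (0.92 ± 0.28 and 1.14 ± 0.32).

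Of 6 genes that control proteasome transcription, among them Nfe2l1, its protease Ddi2 and the extractor Vcp, 1 was called in any of the 7 comparisons, Ngly1, which removes sugars from Nfe2l1 (1.88 ± 0.55 in litter 2 against 1 of the Dppa2/4+/- embryos with Dppa2/4+/+ sires, adjusted p = 0.0142, limma), where 17% of all genes were called and 5.1% were higher. Nfe2l1 itself had a difference of -0.65 ± 0.41 there and 0.13 ± 0.47 in the other cross. Of 16 genes for ubiquitin and its delivery, Rps27a, which encodes ubiquitin fused to a ribosomal protein, was lower in the former (-1.11 ± 0.33, adjusted p = 0.0168) and higher in the latter (1.24 ± 0.38, adjusted p = 0.0449). It was the only one of the 16 called in each, against 11.9% of all genes lower in the former and 2.27% higher in the latter. The shuttle Ubqln1 was higher in Dppa2/4+/- embryos with Dppa2/4+/+ sires than in Dppa2/4+/+ embryos (0.62 ± 0.19, adjusted p = 0.0461, limma), where 4.66% of all genes were called. Litter and genotype cannot be told apart there. Between litters 2 and 1 of these Dppa2/4+/- embryos Ubqln1 differed by 0.61 ± 0.24 and was not called. In Dppa2/4-/- embryos limma called 0 of these 16 genes, and 4 had an unadjusted p under 0.05, against 0.0184% and 14.6% of all genes.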

How the data were processed

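The authors trimmed the reads with Trim Galore 0.6.5 and cutadapt 2.3, mapped them to GRCm38 with HISAT2 2.1.0, removed alignments with a MAPQ below 20 and quantified genes in SeqMonk without regard to strand. The values deposited by the authors are log2 RPM. From their steps the reads behind each value were recovered (99.99974% within 0.05 of a whole read).

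The members and lists were chosen with earlier results of these data known. Values were raised to a common floor of 1.86 log2 RPM. Genes averaging at least 0 log2 RPM in the deposited values, with 1 or more values above the floor, were compared by limma 3.58.1 (R 4.3.3; lmFit, eBayes with trend, Benjamini-Hochberg). A model of the 4 groups gave the comparisons with Dppa2/4+/+ embryos, and a model of the 6 litters with a term for Dppa2/4-/- gave the others. The labels give matings and not mothers, and p-values measure the spread between embryos. Alternatives changed the floor, filter, centring, test, embryos and treatment of litters. The code was tested on simulated data. Lengths came from GENCODE M21 (all 50 members matched) and promoters from RefSeq. Members are named where they were called, were highest or lowest of their role per length, are catalytic or were nearly without reads, and other members named were picked after their values were seen. Figures used matplotlib 3.10.9.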

Additional observations from a re-analysis of the deposited data

Results flagged for a closer look

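Each of the 47 proteasome genes tested, and the summed level of the 31 constitutive subunits, was searched for an embryo standing apart from the others of its group, in the 5 Dppa2/4+/- embryos with Dppa2/4+/- sires and in the 10 Dppa2/4-/- embryos. Of 91 groups of values 9 held such an embryo. Chance gives about 1 in 20 where a group is 1 population, but both groups pool 2 litters, 4 embryos with 1 and 3 with 7, so that rate does not apply here and litter may enter each value. Replicate 2 of the Dppa2/4-/- embryos, 1 of the 3 from litter 1, was the low one for the alpha subunit Psma1 (5.16 log2 RPM, nearest embryo 6.67), the ATPase Psmc1 (1.86, which is the floor, nearest 4.15) and the ATPase Psmc6 (2.67, nearest 4.27). Replicate 10 of the Dppa2/4-/- embryos, from litter 2, was high for Psme2b (2.45, nearest 1.87). Among the Dppa2/4+/- embryos, replicate 3, from litter 1, was high for the ATPase Psmc4 (3.69, nearest 2.38) and the chaperone Psmd10 (2.84, others at the floor of 1.86), replicate 4, also from litter 1, for the immunoproteasome subunit Psmb10 (3.03, nearest 2.02), and replicate 5, the only embryo of litter 2, for the chaperone Psmg2 (5.14, nearest 2.103) and the activator subunit Psme1 (2.67, others at the floor).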

How the results depend on the processing

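In the comparison of Dppa2/4+/- embryos with Dppa2/4+/+ sires against Dppa2/4+/+ embryos, 3 proteasome genes were called with the common floor (4.66% of all genes), 11 with the deposited values and no floor (24.1%), 7 with genes averaging 3 log2 RPM or more (15.1%), 7 with embryos re-centred on their median (5.74%) and 5 with limma voom (15%). The count was 0 to 17 when each litter was left out in turn, 0 when litter entered as a random effect, and 0 from litter means. In Dppa2/4-/- against Dppa2/4+/+ embryos it was 0 to 1 with a litter left out. Between the Dppa2/4+/+ litters it was 0 without embryos under 500000 reads and 0 to 3 with each embryo of litter 2 left out in turn. Between the litters of Dppa2/4+/- embryos with Dppa2/4+/+ sires it was 13 without embryos under 500000 reads (7.13% of all genes). Between the litters of the cross with Dppa2/4+/- males it was 6 with Dppa2/4-/- embryos alone (1.6% of all genes), a setting chosen after seeing the data. The median level per kb was 48.4 with principal transcripts in place of 23.4. Except where fewer embryos or genes were used, the cause was not tested. Re-centring moved the median of all genes from 0.09 to -0.22 in Dppa2/4-/- embryos and from -0.06 to 0.28 between the litters of Dppa2/4+/- embryos with Dppa2/4+/+ sires, where 19 proteasome genes were then lower and Psme4 higher, against 7.12% and 11.5% of all genes. The other alternatives left these counts within 1.5 times. Of 358 values of called genes under alternatives, 300 stayed called, 58 did not pass, and 0 changed sign. The mating number as a replicate block gave 0, 2 and 0 called genes in Dppa2/4-/- embryos and the Dppa2/4+/- embryos with Dppa2/4+/+ and Dppa2/4+/- sires; litter differences of the crosses correlated at 0.446, -0.443 and -0.774 over 6919 genes, so a shared mating number does not pair litters across crosses. Depth limits Psma7, Psmb3, Psmd10, Psme1, Psme2, Psme2b, Psmg2, Psmg3, Psmg4 and the tissue-restricted subunits, among others, which had few reads.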

Other observations

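Proteasome genes also varied together among embryos of the same litter and genotype. After each litter-by-genotype mean was subtracted, pairs among 30 constitutive subunits had a median Pearson r of 0.311 over the 44 embryos, against 0.115 between these subunits and 6889 other genes. By role the median was 0.272 in the alpha ring, 0.410 in the beta ring, 0.357 among the ATPases and 0.403 in the lid. Embryos share depth and detection across genes, and the other genes were not matched for level, so these values are descriptions. The genes whose profile was closest to the mean of the core subunits were Lsm12 (r = 0.869), the cytoplasmic ribosomal genes Rpl18 (0.856), Rps19 (0.852) and Rpl24 (0.844), and the mitochondrial ribosomal gene Mrpl22 (0.848). Down to rank 40 (Zfp821, r = 0.792) no core subunit appeared, so this pattern is not particular to the proteasome.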
